A study of Mus musculus with 6 samples.

Results

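Natural killer (NK) cells and type 1 innate lymphoid cells (ILC1) were examined in single-cell libraries of mouse liver, where they made up 235 of the 38697 barcodes kept as cells (0.607%). Of these barcodes, 109 came from 3 libraries of mice given CWHM-12 and 126 from 3 libraries of mice given DMSO. All mice were wild-type males, 8 to 10 weeks old when the inferior vena cava was partly ligated (pIVCL), an operation that congests the liver. From 2 weeks after surgery, a subcutaneous osmotic pump delivered either CWHM-12, an inhibitor of every integrin that contains the αV subunit, at 100 mg/kg/day, or its vehicle DMSO, and livers were collected after 4 weeks of pump treatment. There was no library from mice without pIVCL. Batch 2024.6 held CWHM-12 1, DMSO 1 and DMSO 2, and batch 2024.12 held CWHM-12 2, CWHM-12 3 and DMSO 3. The labels print no mouse identifier, and the spread that p-values measure here, between libraries, may be a technical one.

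A barcode was a member when it passed the cell filter (at least 300 genes, at least 500 molecules counted as UMIs, at most 30% mitochondrial UMIs) and held at least 2 of the 7 genes Ncr1, Klrb1c, Eomes, Gzma, Prf1, Klrk1 and Nkg7, with Ncr1 or Klrb1c among them. It had no UMI of Cd3d, Cd3e, Cd3g, Cd79a, Clec4f or Timd4, and at most 1 UMI over Stab2, Clec4g and Reln. Members were thus chosen by measured RNA of these genes, whose levels in them are a description. At the edge of the rule, 7 members held exactly 2 of the 7 genes and 37 held all of them. Just outside it, 8 barcodes held Ncr1 or Klrb1c as the sole gene, and 38 met every other condition but had exactly 1 UMI of the 6 barred genes, in 25 of them a Cd3 gene. Another 20 held 2 or more of the other rule genes but neither Ncr1 nor Klrb1c. Further out, 429 barcodes met every other condition but had 2 or more UMIs of the barred genes, more than the 235 members.

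NK cells and ILC1 are innate lymphocytes that carry no rearranged antigen receptor and read the balance of activating and inhibitory receptors on their surface. NK cells circulate, depend on the transcription factor Eomes, and kill target cells by releasing perforin and granzymes. Liver ILC1 are resident cells that lack Eomes, keep integrin α1 and CXCR6, and are known for cytokine secretion and for killing through TRAIL. TGF-β, which αV integrins release from its latent form, is known in mice to favour ILC1 features over NK cell features, so the question put to these cells is whether they differ when αV integrins are inhibited.

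The members of a library held 139362, 83997 and 42284 UMIs in CWHM-12 1 to 3 and 240170, 99450 and 125241 UMIs in DMSO 1 to 3. The median member had 4180, 1389 and 2060 UMIs in CWHM-12 1 to 3, against 4072, 2561 and 3535 UMIs in DMSO 1 to 3, so members were shallowest in CWHM-12 2 and CWHM-12 3. No pair of libraries shared a member, and none shared more than 5 barcodes. In the members' summed profiles, CWHM-12 3 correlated with the rest at a median of 0.806 and DMSO 2 at 0.746, against at least 0.879 for each of the remaining libraries. Only 3 members reached a Scrublet doublet score of 0.25.

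Members were set beside T cell barcodes (1071 barcodes with at least 2 UMIs over Cd3d, Cd3e and Cd3g) and B cell barcodes (2399 barcodes with Cd79a and another B cell gene). The rule asked for Ncr1 or Klrb1c, so their levels in members describe the choice and say nothing for the label. Levels are given first as plain CPM, the UMIs of a gene scaled to all UMIs summed over the barcodes of that class in a library. Ncr1, which encodes the activating receptor NKp46, measured 1033, 964 and 804 CPM in CWHM-12 1 to 3 and 1124, 1679 and 966 CPM in DMSO 1 to 3. Klrb1c, the gene of NK1.1, measured 962, 1238 and 993 CPM in the CWHM-12 libraries and 1095, 1408 and 1238 CPM in the DMSO libraries. Both genes were high in every library, with DMSO 2 highest for each. The mean over 6 libraries was 1095 ± 305 CPM for Ncr1, against 34.1 CPM in T cell barcodes and 0.931 CPM in B cell barcodes (SD over libraries). For 3 further rule genes the ratio to T cell barcodes was smaller. Klrb1c averaged 1156 ± 170 CPM in members and 294 CPM in T cell barcodes, 37.2% of which had a UMI of it. Nkg7, a granule membrane protein gene, averaged 2101 ± 183 CPM in members and 981 CPM in T cell barcodes, and was seen in 70.5% of the T cell barcodes. Klrk1, the gene of the activating receptor NKG2D, averaged 1274 ± 142 CPM in members and 325 CPM in T cell barcodes.

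Of all members, 85.5% had a UMI of Ncr1 and 28.5% a UMI of Eomes. As a measure of free RNA, 0.0834% of B cell barcodes, which should lack the gene, had a UMI of Ncr1. After each barcode was thinned to 1000 UMIs, which left out 11 CWHM-12 and 2 DMSO members, Ncr1 was seen in 59.5% of members, against 2.46% of T cell barcodes and 0.0432% of B cell barcodes. Alb, the hepatocyte albumin gene, gave the opposite picture. Free RNA of this gene was widespread, since it was seen in 69.4% of members, 64.8% of T cell barcodes and 68.2% of B cell barcodes.

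The 20 genes that stood highest over all other kept barcodes in every library were mostly receptors and effectors. They included Ncr1, Klrb1c, Eomes, Gzma, Prf1 and Nkg7, which the rule had used. Among the receptors were Klra8, Klra4, Klrb1a, Klrb1b, Klrb1f, Klri2, Klre1, Klrc1 and Klrc2, members of the lectin-like families that sense MHC class I and related ligands. The Klra and the Klrb1 genes are families of related genes, and how UMIs of shared sequence were split among them is uncertain. Effector genes in this group were Gzma and Prf1, both used by the rule, and Gzmb, with Gzma at 3987 ± 1241 CPM, Gzmb at 1929 ± 321 CPM and Prf1 at 514 ± 142 CPM (SD over 6 libraries), which encode granzymes A and B and perforin. The chemokine genes Xcl1, whose product attracts cross-presenting dendritic cells, and Ccl5 stood at 1254 ± 277 CPM and 7740 ± 1588 CPM, against 302 and 2750 CPM in T cell barcodes. Adaptors of the activating receptors, which the rule did not use, were also higher in members, where the lowest library lay above the highest T cell library. Fcer1g was at 2429 ± 211 CPM in members and 187 CPM in T cell barcodes. Tyrobp, the DAP12 adaptor, was at 1223 ± 421 CPM in members and 81.2 CPM in T cell barcodes.

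**Figure D1:**
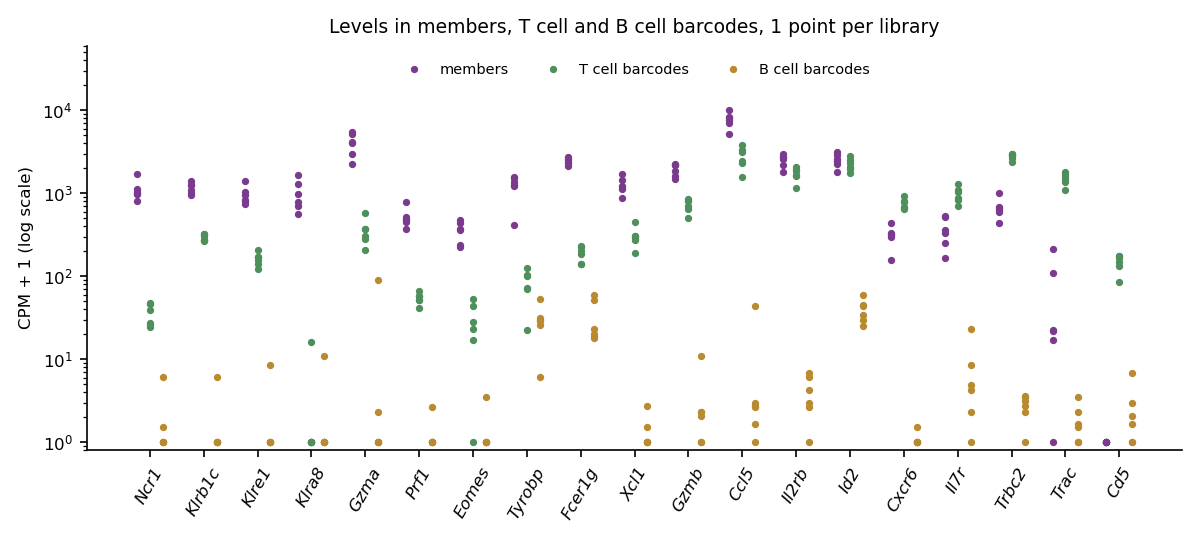
Levels of 19 genes in members, T cell barcodes and B cell barcodes, in CPM plus 1 on a log axis, 1 point per library. Ncr1, Klre1, Tyrobp and Fcer1g in members lie above T cell and B cell barcodes in every library, the ranges of Id2 in members and T cells overlap, and Trac and Cd5 are T cell genes.

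Markers of other lymphocytes were in part absent and in part present. Of 14 listed T cell genes, 10 had a UMI in members, and the list summed to 1736, 1631 and 2578 CPM in CWHM-12 1 to 3 and to 1366, 2232 and 1844 CPM in DMSO 1 to 3, against 6458 to 7934 CPM in T cell barcodes. Cd8a, Cd8b1, Cd5 and Themis had 0 UMIs in 235 members, which allows a share of up to 1.28% of barcodes with a UMI, for counting error only. Of 10 listed genes of ILC2, ILC3, basophils and mast cells in the files, 8 were at 0 UMIs, among them Il1rl1, Mcpt8 and Cpa3. Lat, an adaptor gene of the T cell receptor, was seen in 44 members, Bcl11b, a T cell transcription factor gene, in 37 and the costimulatory receptor gene Cd28 in 36. Of 9 listed B cell genes, Jchain and Pax5 were at 0 UMIs, while Ighm was seen in 91 members, at 189 CPM on average, against 195 CPM in T cell and 7287 CPM in B cell barcodes. T cell receptor genes were present as well. Trbc2 was seen in 47.2% of members and Trbc1 was at 793 CPM on average, and both constant regions are known to be transcribed in NK cells without rearrangement. Trac, the constant region of the T cell receptor α chain, had a UMI in 18 members, at 21.5, 107 and 213 CPM in CWHM-12 1 to 3, against 20.8, 0 and 16.0 CPM in DMSO 1 to 3. In plain CPM every CWHM-12 library thus stood above every DMSO library in Trac, on 28 UMIs in all. The margin of CWHM-12 1 over DMSO 1 was smaller than 1 UMI is worth in CWHM-12 1 (7.18 CPM). The order of these 2 libraries is therefore not settled. A single barcode of CWHM-12 3 held 5 of the Trac UMIs. Of the 2257 genes tested below, 118 (5.23%) lay above DMSO in every library. In all, 51 members (21.7%) had a UMI of Trac, Cd4, Cd5, Cd6, Cd8b1 or Cd28, and the tests of treatment below were repeated without them. Beyond that, the part of T cell RNA in the results was not tested.

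Members were divided by genes taken to separate NK cells from ILC1. A member was NK-side with a UMI of Eomes, Itga2, S1pr5, Cma1, Klra4 or Klra8 and none of Cxcr6, Itga1, Cd200r1, Tnfsf10 or Zfp683, and ILC1-side in the reverse case. NK-side members numbered 85 (36.2%) and ILC1-side members 106 (45.1%), while 30 (12.8%) held genes of both sides and 14 (5.96%) of neither. A single UMI decided 6 of the NK-side and 15 of the ILC1-side calls. Beside T cells, the ILC1-side genes were not particular to members. Cxcr6 was seen in 58.9% of T cell barcodes and 36.6% of members, Itga1 in 30.4% and 29.8%, and Zfp683 in 3.64% and 2.98%. Cd200r1 and Tnfsf10 were seen more often in members, at 23.8% and 31.1%, against 7.47% and 19.1% of T cell barcodes. NK-side members were shallower, with a median of 2085 UMIs against 2914 UMIs on the ILC1-side. The marker genes seldom met in the same barcode. Of the 67 members with Eomes and the 86 with Cxcr6, only 1 held both, and none of the 67 held Itga1. In contrast, 42 of the 67 members with Eomes also held Klra4, and 42 of the 86 with Cxcr6 also held Itga1. Itga2, the gene of the NK marker CD49b, was less exclusive, since 14 of the 52 members that held it also held Cxcr6. It met Itga1 in 12 members and Tnfsf10 in 16. Independent detection would give 19.0 members with Cxcr6, 15.5 with Itga1 and 16.2 with Tnfsf10. Of the 52 members with Itga2, 32 were NK-side, and the rest held genes of both sides.

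Genes that took no part in this division also differed between the sides, in the same direction in all 6 libraries. These are a description without a test, because the sides were cut from the same barcodes. Klf2, a transcription factor that maintains the egress receptors of circulating lymphocytes, averaged 897 ± 303 CPM in NK-side and 57.4 ± 28.0 CPM in ILC1-side members (SD, n = 6 libraries each). The inhibitory receptor gene Klra7 averaged 641 ± 268 CPM on the NK-side and had 0 UMIs in 106 ILC1-side members, which allows up to 2.83% of barcodes with a UMI. For both genes the lowest NK-side library lay above the highest ILC1-side library. Klra7 belongs to the same gene family as Klra4 and Klra8, and a UMI of Klra4 or Klra8 barred a member from the ILC1-side. The difference in Klra7 may therefore follow in part from the division. Other genes higher on the NK-side in every library were Klrg1, Prr5l, Ly6c2, Irf8, Arl4c, Pdlim1, Ctla2a and ENSMUSG00000121360, for which the files give no symbol.

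Killing genes split between the sides rather than following one of them. Gzma averaged 7505 ± 3096 CPM on the NK-side and 2251 ± 852 CPM on the ILC1-side, and was seen in 96.5% and 34.0% of their members. Prf1 averaged 1075 ± 300 CPM on the NK-side and 209 ± 47.6 CPM on the ILC1-side. Both were higher on the NK-side in 6 of 6 libraries, as was Serpinb9, the inhibitor that protects killers from granzyme B, at 1132 ± 451 CPM against 306 ± 140 CPM. Gzmb ran the other way, at 1306 ± 494 CPM on the NK-side and 2358 ± 625 CPM on the ILC1-side, higher on the ILC1-side in 6 of 6 libraries. Srgn, the proteoglycan that packs granzymes, also stood higher there, at 570 ± 140 CPM on the NK-side and 1151 ± 274 CPM on the ILC1-side.

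Other receptor and signalling genes stood higher on the ILC1-side, some of them at similar levels in T cells. Inpp4b, a phosphoinositide phosphatase, had 0 UMIs in 85 NK-side members, which allows up to 3.53% of barcodes with a UMI, and averaged 361 ± 133 CPM in ILC1-side members and 521 CPM in T cell barcodes. Trgc4, a constant region of the T cell receptor γ chain, averaged 4.75 ± 11.6 CPM on the NK-side and 520 ± 176 CPM on the ILC1-side, and its UMIs may be shared with the other γ constant regions. For both genes the lowest ILC1-side library lay above the highest NK-side library. Among receptors, Cd226, the activating receptor DNAM-1, averaged 48.0 ± 53.2 CPM on the NK-side and 408 ± 122 CPM on the ILC1-side, with 353 CPM in T cell barcodes, and Klrb1b averaged 224 ± 98.4 CPM and 918 ± 117 CPM in that order. P2rx7, the receptor for extracellular ATP, and Cd200r2 also had 0 UMIs in NK-side members and averaged 142 ± 80.0 CPM and 142 ± 62.8 CPM on the ILC1-side. The remaining genes chosen for the ILC1-side by the same rule were Pitpnm2, Mdfic, Cpne7, Cd7, Asb2, Adgrg3, Septin8 and Nedd9.

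Genes of cytokine receptors and cytokines had no common direction between the sides. Il7r, the interleukin-7 receptor of resident lymphoid cells, averaged 106 ± 200 CPM on the NK-side and 517 ± 200 CPM on the ILC1-side. Il7r was seen in 34.0% of members and in 57.6% of T cell barcodes. Il18r1 and Il18rap, the chains of the interleukin-18 receptor, averaged 329 ± 177 CPM and 571 ± 274 CPM on the NK-side, against 106 ± 71.2 CPM and 166 ± 65.4 CPM on the ILC1-side. Each of these 3 genes kept its direction in 6 of 6 libraries. Xcl1 averaged 429 ± 321 CPM on the NK-side and 1925 ± 715 CPM on the ILC1-side, while Ifng, the gene of interferon-γ, was at 45.7 ± 58.8 CPM and 55.5 ± 71.6 CPM and was higher on the NK-side in 4 of 6 libraries. Ccl5 was seen in 84 NK-side and 102 ILC1-side members, at 9909 ± 2433 CPM and 7280 ± 1684 CPM. Among inhibitors of cytokine signals, Socs2 averaged 20.9 ± 25.5 CPM on the NK-side and 303 ± 209 CPM on the ILC1-side, and Socs3 averaged 52.3 ± 55.7 CPM on the NK-side and 11.5 ± 21.3 CPM on the ILC1-side, on 7 and 5 UMIs.

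The target of the drug was present at low levels. Itgav, the αV subunit, had 49 UMIs in 37 members, and averaged 44.2 ± 52.6 CPM on the NK-side and 101 ± 40.7 CPM on the ILC1-side, higher on the ILC1-side in 5 of 6 libraries. Among its β partners, Itgb3 averaged 8.82 ± 13.8 CPM on the NK-side and 76.6 ± 36.5 CPM on the ILC1-side, higher on the ILC1-side in 6 of 6 libraries. Itgb1 averaged 861 ± 303 CPM on the NK-side and 458 ± 254 CPM on the ILC1-side, higher on the NK-side in 5 of 6 libraries. Itgb6 and Itgb8, the partners best known for releasing TGF-β, had 0 UMIs in 235 members, and Itgb5 had 7. Itgae, the αE chain that TGF-β induces in many lymphocytes, also had 0 UMIs.

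**Figure D2:**
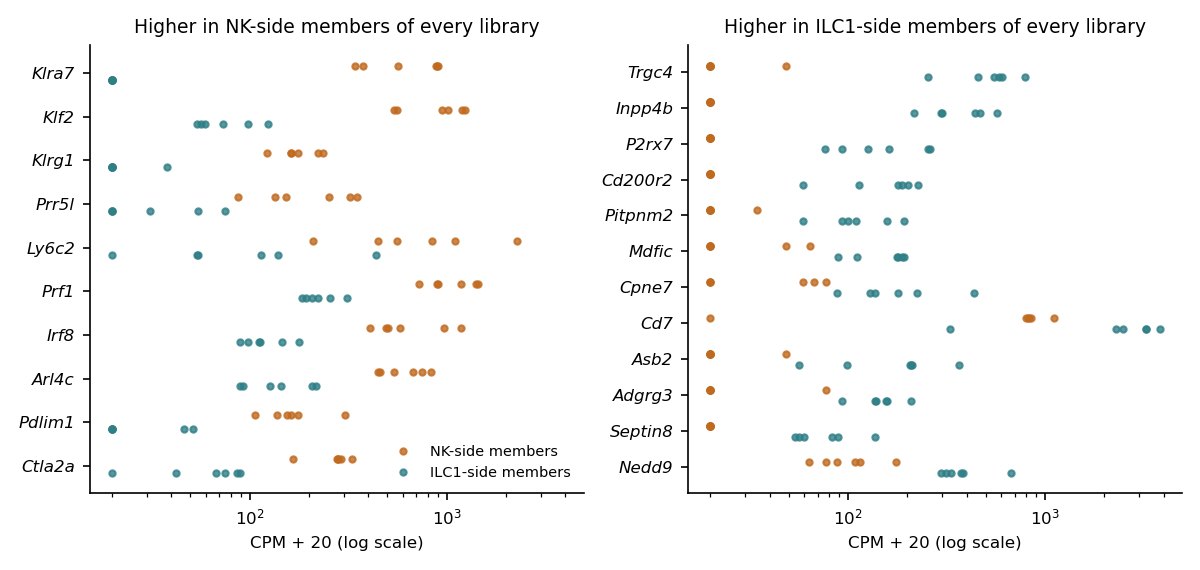
Levels of genes that did not define the sides in NK-side and ILC1-side members, in CPM plus 20 on a log axis, 1 point per library and side. The left panel holds genes higher in NK-side members of every library, with Klra7 and Klf2 at the top, and the right panel genes higher in ILC1-side members of every library, led by Trgc4 and Inpp4b. Klra7 belongs to the same gene family as Klra4 and Klra8, which helped to define the NK-side.

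Members were fewer among kept barcodes in CWHM-12 libraries, within the spread between libraries. They were 30 of 6182, 59 of 8447 and 20 of 8074 kept barcodes in CWHM-12 1 to 3 (0.485%, 0.698% and 0.248%), against 50 of 5934, 39 of 3163 and 37 of 6897 in DMSO 1 to 3 (0.843%, 1.23% and 0.536%). CWHM-12 3 was lowest and DMSO 2 highest, and the groups overlapped because CWHM-12 2 lay above DMSO 3. The 95% Wilson intervals spanned 0.16% to 0.900% over the CWHM-12 libraries and 0.389% to 1.68% over the DMSO libraries, and these cover counting error only. The mean was 0.477% ± 0.225 in CWHM-12 libraries and 0.871% ± 0.349 in DMSO libraries (SD, n = 3 each), a difference of -0.394 points with a two-sided exact permutation p of 0.2. Within batches the difference was -0.553 points in batch 2024.6 and -0.0634 points in batch 2024.12. The smallest p that 3 libraries against 3 allow is 0.1.

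This share depends on the other cells in the denominator, whose number the preparation also sets. Among lymphocytes (members plus T cell and B cell barcodes), members made up 4.73%, 9.53% and 7.41% in CWHM-12 1 to 3, against 6.27%, 7.99% and 4.12% in DMSO 1 to 3. The groups overlapped over nearly their whole range, with CWHM-12 2 highest and DMSO 3 lowest. The means were 7.22% ± 2.41 in CWHM-12 libraries and 6.13% ± 1.94 in DMSO libraries (SD, n = 3 each), a difference of 1.09 points with an exact permutation p of 0.6. The difference was -2.40 points in batch 2024.6 and 4.34 points in batch 2024.12, so it had opposite signs in the batches. Per 100 T cell barcodes there were 22.2, 22.2 and 11.4 members in CWHM-12 1 to 3 and 25.3, 28.1 and 23.6 in DMSO 1 to 3. CWHM-12 3 stood lowest by this measure, and the CWHM-12 libraries lay below the DMSO libraries without overlap, a ratio that was not tested.

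The balance of the sides was not told apart between the treatments. Members with genes of both sides or of neither do not enter this share, and they differed in depth, with medians of 4435 and 1510 UMIs. Both sides were seen in 4, 1 and 0 members of CWHM-12 1 to 3 and in 14, 6 and 5 of DMSO 1 to 3. Neither was seen in 2, 8 and 1 members of CWHM-12 1 to 3 and in 1, 0 and 2 of DMSO 1 to 3. ILC1-side barcodes were 16 of 24, 19 of 50 and 11 of 19 sided members in CWHM-12 1 to 3 (66.7%, 38.0% and 57.9%), against 19 of 35, 21 of 33 and 20 of 30 in DMSO 1 to 3 (54.3%, 63.6% and 66.7%). CWHM-12 2 was lowest, and the other libraries lay close together. The mean share was 54.2% ± 14.7 in CWHM-12 libraries and 61.5% ± 6.45 in DMSO libraries (SD, n = 3 each), a difference of -7.34 points with an exact permutation p of 0.7. It was 7.71 points in batch 2024.6 and -18.7 points in batch 2024.12. Adjusted over the 3 shares compared, the p-values were 0.6 for the share of kept barcodes and 0.7 for the other two. With 19 to 50 sided members in a library, 95% Wilson intervals were wide, from 25.9% to 51.8% in CWHM-12 2 and from 48.8% to 80.8% in DMSO 3.

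**Figure D3:**
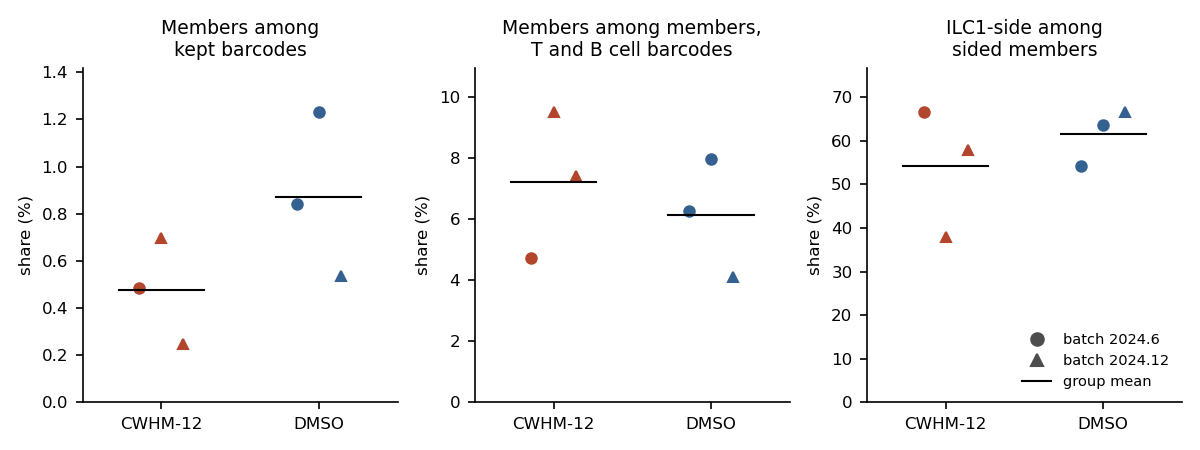
Share of members among kept barcodes, share of members among lymphocytes, and share of ILC1-side barcodes among sided members, in percent, 1 point per library with the group mean as a line and the batch as the symbol. The groups overlap in all 3 panels, with group means of 0.477% and 0.871%, 7.22% and 6.13%, and 54.2% and 61.5% in CWHM-12 and DMSO libraries.

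No gene passed the test of CWHM-12 against DMSO in NK cells and ILC1. Counts summed over the members of a library were fitted for 2257 genes with edgeR's quasi-likelihood test and a batch term, and 0 genes (0.0%) had a Benjamini-Hochberg adjusted p under 0.05. The smallest adjusted p was 0.994, and 56 genes (2.48%) had an unadjusted p under 0.05. DESeq2 and limma voom also called 0 genes. In counts simulated at these depths, the same fit recovered 93.1% of 4-fold changes and 29.9% of 2-fold changes, so changes of 2-fold or less were mostly not detectable here. Those percentages cover the 87 and 77 changed genes that passed the filter on low counts. The simulation gave every gene the same dispersion and no batch effect, so recovery in the data may be lower. Fold changes below are log2 of CWHM-12 over DMSO, and levels use library sizes scaled by TMM, which moves CPM slightly from those above. Levels in T cell barcodes, levels within a side and sums over gene lists remain plain CPM.

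The 12 genes of smallest p, 7 higher and 5 lower in CWHM-12 libraries, are given as values that did not pass. Itpkb, a kinase that converts inositol trisphosphate and tunes lymphocyte receptor signals, measured 218, 210 and 168 CPM in CWHM-12 1 to 3, against 68.0, 40.5 and 87.3 CPM in DMSO 1 to 3. Its CWHM-12 libraries all lay above its DMSO libraries, with a log2 fold change of 1.58 (SE 0.41, unadjusted p 0.00239, adjusted p 0.994 with edgeR). Prdm1, the gene of the repressor Blimp-1 that acts in NK cell maturation, measured 91.6, 117 and 95.9 CPM in CWHM-12 1 to 3, against 29.7, 10.1 and 47.6 CPM in DMSO 1 to 3. These groups did not overlap either, at a log2 fold change of 1.60 (SE 0.54, adjusted p 0.994 with edgeR), on 41 UMIs in 33 members. Of all tested genes, 118 (5.23%) were above and 129 (5.72%) below DMSO in every library, so a lack of overlap alone marks many genes.

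Genes of the lysosome, glycan trimming and endocytosis were also among the 12. Man2b1, the lysosomal α-mannosidase, measured 176, 234 and 240 CPM in CWHM-12 1 to 3, against 85.0, 40.5 and 111 CPM in DMSO 1 to 3. Mogs, the endoplasmic reticulum glucosidase that starts N-glycan trimming, measured 134, 129 and 192 CPM in the CWHM-12 libraries and 63.7, 20.3 and 55.6 CPM in the DMSO libraries. Dnm2, the dynamin that cuts endocytic vesicles free, measured 183, 129 and 168 CPM in the CWHM-12 libraries and 97.7, 30.4 and 55.6 CPM in the DMSO libraries. All 3 lay above DMSO without overlap, and DMSO 2 was the lowest library for each. Their log2 fold changes were 1.25, 1.47 and 1.36, and all had an adjusted p of 0.994 with edgeR. In T cell barcodes, DMSO 2 was again the lowest library for Man2b1, Mogs and Dnm2, at 71.9, 45.5 and 14.4 plain CPM. The other libraries spanned 81.6 to 152, 45.6 to 66.6 and 91.2 to 145 plain CPM there. How far DMSO 2 sets the values in members was not tested.

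The 5 lower genes were Hmgn2, Gimap1os, Scaf11, Yipf5 and Serpina3f. Hmgn2, a nucleosome-binding protein gene, measured 49.3, 58.5 and 24.0 CPM in CWHM-12 1 to 3, against 191, 152 and 111 CPM in DMSO 1 to 3. Serpina3f, a serine protease inhibitor from a cluster of near-identical copies, measured 84.6, 70.1 and 48.0 CPM in the CWHM-12 libraries and 140, 142 and 230 CPM in the DMSO libraries. Both lay below DMSO without overlap, at log2 fold changes of -1.54 and -1.23 (adjusted p 0.994 each with edgeR). Gimap1os is an antisense gene, and without a stated strand its UMIs cannot be told apart from those of its partner. Scaf11, a splicing factor gene, and Yipf5, a gene of early secretory transport, had log2 fold changes of -1.07 and -1.35. All 12 genes had the same sign in both batches, which their choice by small p in these same libraries favours.

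**Figure D4:**
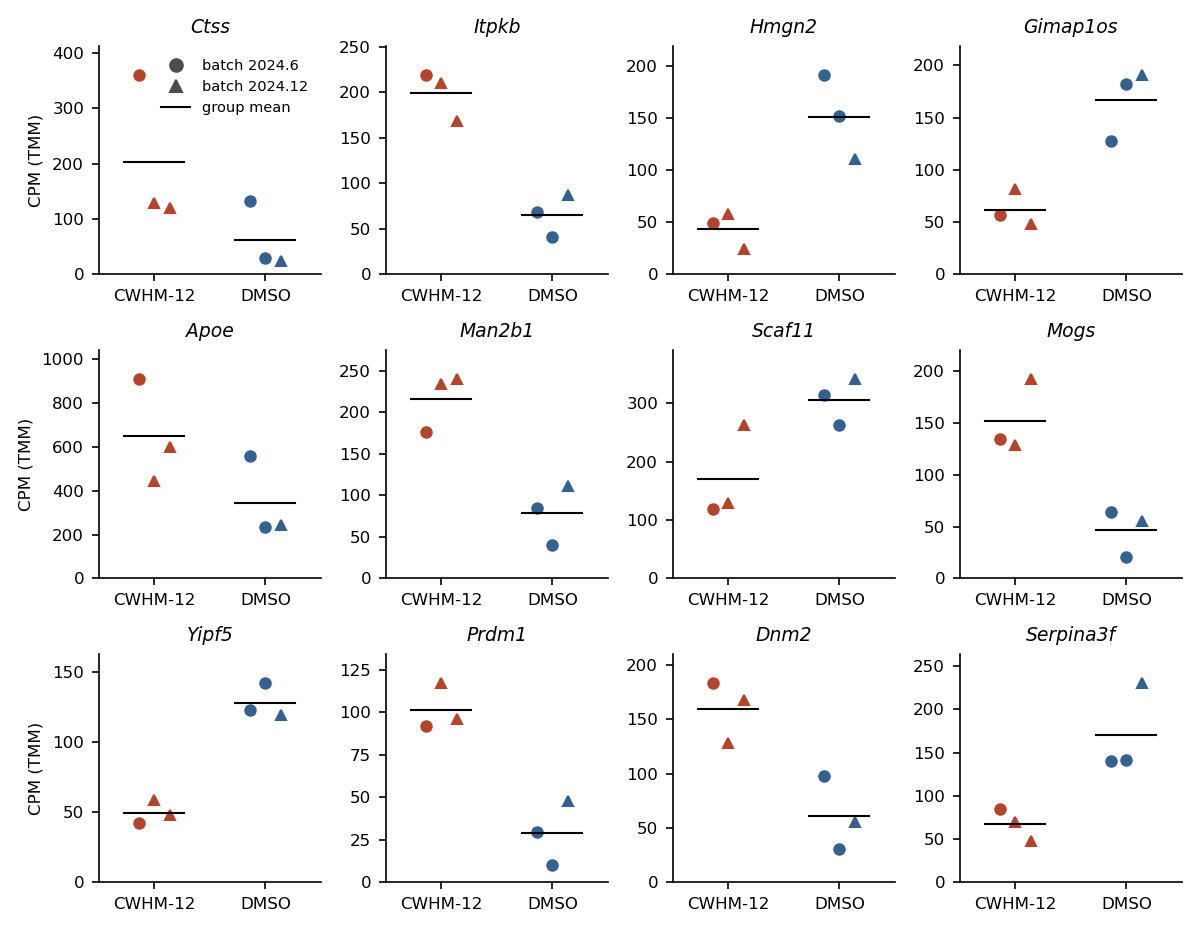
Levels of the 12 genes of smallest p in CWHM-12 and DMSO libraries, in CPM on TMM-scaled library sizes, 1 point per library with the group mean as a line and the batch as the symbol. None passed the test, and the groups do not overlap for 9 of the 12, the exceptions being Ctss, Apoe and Scaf11.

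The other 2 of the 12, Ctss and Apoe, are genes of macrophages, and a single barcode held much of their signal. Ctss, the gene of the antigen-processing protease cathepsin S, measured 359, 129 and 120 CPM in CWHM-12 1 to 3, against 132, 30.4 and 23.8 CPM in DMSO 1 to 3, with a log2 fold change of 2.08 (SE 0.50, adjusted p 0.994 with edgeR). A barcode of CWHM-12 1 held 48 of its 104 UMIs and 75 of the 378 UMIs of Apoe. This barcode had 12193 UMIs, 275 of the 298 UMIs of the 11 listed macrophage genes in that library (92.3%), 202 UMIs of H2-Aa, and 1 UMI of Klrb1c with 2 of the 7 rule genes. Another barcode, of DMSO 1, held 94 of that library's 120 macrophage UMIs (78.3%). The summed macrophage genes stood at 2138, 369 and 591 CPM in CWHM-12 1 to 3 and at 500, 80.4 and 303 CPM in DMSO 1 to 3, with Marco at 0. Without the 2 barcodes, CWHM-12 1 was at 181 CPM and DMSO 1 at 112 CPM, and Apoe had a log2 fold change of 0.62 in place of 1.13. Ctss then no longer passed the filter on low counts, and 0 of 2269 genes were called.

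Cell division genes showed the same concentration on the other side. Over 13 genes of dividing cells such as Mki67 and Top2a, 5 barcodes of DMSO 1 held 419 of that library's 430 UMIs (97.4%). Their sum was 50.2, 59.5 and 23.6 CPM in CWHM-12 1 to 3, against 1790, 80.4 and 104 CPM in DMSO 1 to 3. DMSO 1 alone stood out, and without its 5 barcodes it was at 56.1 CPM, inside the range of the other libraries. Of these 5 barcodes, 3 held genes of both sides and 2 were ILC1-side.

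The activating receptor list had 20 tested genes of 26, with 10 higher and 10 lower in CWHM-12 libraries, 0 called and a median log2 fold change of -0.07, beside 0.00 over all 2257 genes. The inhibitory receptors had 3 higher and 5 lower of 8 tested, with a median of -0.02, and the granule and death ligand genes 6 higher and 7 lower of 13, with a median of -0.01. Gzmb, for example, measured 1473, 2140 and 2302 CPM in CWHM-12 1 to 3, against 1891, 1632 and 2143 CPM in DMSO 1 to 3, an overlap over nearly the whole range. Tnfsf10, the gene of the death ligand TRAIL, was the 1 granule and death ligand gene with an unadjusted p under 0.05. It measured 141, 81.8 and 71.9 CPM in CWHM-12 1 to 3, against 187, 324 and 167 CPM in DMSO 1 to 3. The CWHM-12 libraries lay below the DMSO libraries, with a log2 fold change of -0.89 (SE 0.39, adjusted p 0.994 with edgeR).

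None of the liver ILC1 genes was called. Of 15 listed, 12 were tested, and 4 were higher and 8 lower in CWHM-12 libraries, beside 1135 higher and 1122 lower of all 2257 genes, with a median log2 fold change of -0.15 that ranged from -0.68 to -0.02 when single libraries were left out. The list summed to 4858, 3155 and 2885 plain CPM in CWHM-12 1 to 3, against 4326, 4233 and 4535 plain CPM in DMSO 1 to 3, so CWHM-12 1 was the highest library and the other CWHM-12 libraries the lowest. Inpp4b measured 197, 164 and 120 CPM in CWHM-12 1 to 3, against 280, 264 and 405 CPM in DMSO 1 to 3, below DMSO without overlap, at a log2 fold change of -0.90 (SE 0.33, unadjusted p 0.0181, adjusted p 0.994 with edgeR). Within ILC1-side members alone it measured 278, 276 and 196 CPM in CWHM-12 1 to 3, against 450, 420 and 549 CPM in DMSO 1 to 3, so the groups did not overlap there either. Among ILC1-side members, 118 of 2257 genes (5.23%) were below DMSO and 100 (4.43%) above it in every library. In T cell barcodes, Inpp4b measured 410, 381 and 468 plain CPM in the CWHM-12 libraries and 626, 733 and 507 plain CPM in the DMSO libraries. The T cell libraries did not overlap, at a log2 fold change of -0.51 (SE 0.21, unadjusted p 0.0370, adjusted p 0.998 with edgeR), and the difference from the members' fold change was not called (adjusted p 1 with edgeR). How many genes lacked overlap in T cell barcodes was not counted.

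Genes of circulating NK cells had no common direction, with 5 higher and 5 lower of 10 tested, and a median log2 fold change of -0.09 that ranged from -0.96 to 0.63 when single libraries were left out. Eomes measured 218, 362 and 240 CPM in CWHM-12 1 to 3, against 450, 476 and 357 CPM in DMSO 1 to 3, an overlap of CWHM-12 2 with DMSO 3 only, at a log2 fold change of -0.63 (SE 0.32, adjusted p 0.994 with edgeR). Klf2 measured 247, 713 and 504 CPM in the CWHM-12 libraries and 302, 193 and 317 CPM in the DMSO libraries, at 0.48 (SE 0.35, adjusted p 0.994 with edgeR). Klf2 was highest in CWHM-12 2, the library with the largest share of NK-side members. Within NK-side members, Eomes measured 1164, 732 and 673 CPM in CWHM-12 1 to 3, against 1232, 1430 and 1283 CPM in DMSO 1 to 3. Eomes is a gene of the rule and of the NK-side, so these members were chosen in part by its UMIs and the values are a description of the choice as well. The treatments did not overlap there, as was the case for 126 of 2257 genes (5.58%) that lay below DMSO in every library of NK-side members, with 88 (3.9%) above. These within-side values of Inpp4b and Eomes were picked after they had been seen, and rest on 8 to 31 NK-side and 11 to 21 ILC1-side members per library.

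**Figure D5:**
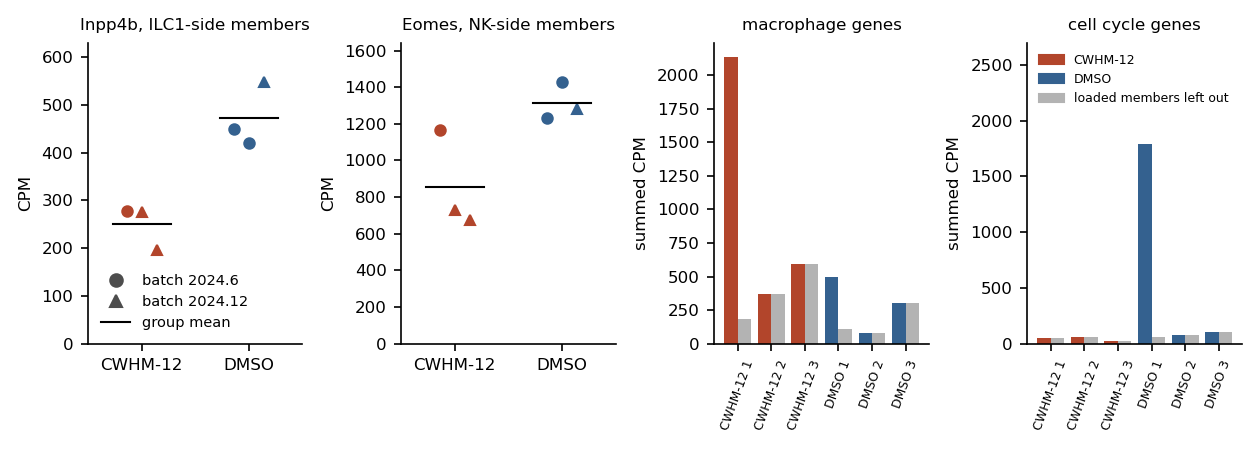
From left, Inpp4b in ILC1-side members and Eomes in NK-side members, in CPM, 1 point per library with the group mean as a line, and then the summed CPM of macrophage and cell cycle genes in each library. Eomes helped to define the NK-side. The first 2 panels show the CWHM-12 libraries below the DMSO libraries, and the grey bars show that the macrophage sum of CWHM-12 1 is 181 CPM and the cell cycle sum of DMSO 1 is 56.1 CPM without the loaded barcodes.

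The integrin and TGF-β genes, closest to the target of CWHM-12, showed no called change. Of 9 tested integrin genes, 5 were higher and 4 lower, with a median log2 fold change of 0.07. Itgav was too low to be tested, and measured 77.5, 58.5 and 144 CPM in CWHM-12 1 to 3, against 59.5, 30.4 and 79.4 CPM in DMSO 1 to 3, with overlap. Of 8 tested genes of the TGF-β pathway and its lymphocyte targets, 4 were higher and 4 lower, with a median of -0.09. Tgfbr2, the receptor chain that binds TGF-β, measured 162, 140 and 168 CPM in the CWHM-12 libraries and 174, 253 and 206 CPM in the DMSO libraries, just below without overlap. Smad7, the feedback inhibitor that TGF-β induces, was too low to be tested and measured 70.5, 70.1 and 71.9 CPM in CWHM-12 1 to 3, against 38.2, 40.5 and 31.7 CPM in DMSO 1 to 3, on 36 UMIs in all.

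Cytokine genes had 3 higher and 2 lower of 5 tested, with a median log2 fold change of 0.09. Ccl3, the gene of the chemokine MIP-1α, measured 261, 257 and 71.9 CPM in CWHM-12 1 to 3, against 433, 679 and 286 CPM in DMSO 1 to 3. The CWHM-12 libraries lay below the DMSO libraries, at a log2 fold change of -0.85 (SE 0.38, adjusted p 0.994 with edgeR), and 1 barcode of DMSO 1 held 46 of the 267 UMIs. Cytokine receptor and JAK-STAT genes had 9 higher and 7 lower of 16, with a median of 0.13, and the 13 tested transcription factors of NK cells and ILC had 8 higher and 5 lower, with a median of 0.06. Irf8, a transcription factor of the NK cell response, measured 366, 503 and 216 CPM in the CWHM-12 libraries and 272, 162 and 230 CPM in the DMSO libraries, at 0.73 (SE 0.35, adjusted p 0.994 with edgeR). Interferon response genes had 3 higher and 3 lower of 6 tested, and immediate early genes 7 higher and 5 lower of 12. The hepatocyte genes summed to 1622, 1024 and 5250 CPM in CWHM-12 1 to 3 and to 2865, 2313 and 1118 CPM in DMSO 1 to 3, highest in CWHM-12 3, and their part in these values was not tested.

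Whether NK cells and ILC1 responded differently from T cells was tested as class by treatment with the library as a block. Of 6167 genes, 3 (0.0486%) passed at an adjusted p of 0.05 with edgeR, and 263 (4.26%) had an unadjusted p under 0.05. In T cell barcodes alone, 0 of 6907 genes (0.0%) were called for CWHM-12 against DMSO, and 141 (2.04%) had an unadjusted p under 0.05. The 3 genes were Ctss, Serpina3f and Egr1. Their values in T cell barcodes are given here in plain CPM, beside TMM-scaled CPM in members. Ctss measured 75.2, 114 and 57.6 CPM in T cell barcodes of CWHM-12 1 to 3, against 111, 134 and 111 CPM in those of DMSO 1 to 3. The difference of responses, members minus T cells, was 2.64 (SE 0.47, adjusted p 0.000436 with edgeR), and without the macrophage-loaded barcodes it was 0.92 (adjusted p 1).

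Serpina3f measured 229, 196 and 173 CPM in T cell barcodes of CWHM-12 1 to 3, against 128, 76.7 and 148 CPM in those of DMSO 1 to 3. Serpina3f was above DMSO in T cells and below DMSO in members without overlap in either, and the difference of responses was -1.98 (SE 0.44, adjusted p 0.0374 with edgeR). The share of genes without overlap was counted in members only, not in T cell barcodes. Egr1, an immediate early transcription factor induced by receptor signals and by tissue dissociation, measured 21.1, 23.4 and 71.9 CPM in members of CWHM-12 1 to 3, against 204, 294 and 7.94 CPM in those of DMSO 1 to 3. In T cell barcodes it measured 130, 127 and 175 CPM in the CWHM-12 libraries and 75.3, 110 and 49.3 CPM in the DMSO libraries. The difference of responses was -2.69 (SE 0.61, adjusted p 0.0374 with edgeR), and in members the treatments differed by -2.80 in batch 2024.6 and 1.28 in batch 2024.12 on the log2 scale. Its 86 UMIs lay in 15 members, with 25 in a single barcode of DMSO 1. Without the macrophage-loaded barcodes, 0 of 6192 genes passed, 266 had an unadjusted p under 0.05, and the adjusted p of Serpina3f and of Egr1 was 0.156, at differences of -1.92 and -2.62. With the dividing members also left out, both passed (adjusted p 0.0281 each with edgeR, differences of -2.01 for Serpina3f and -2.75 for Egr1), and Ctss did not (1.05). Without members that had T cell genes, Ctss and Lyz2 passed, and without CWHM-12 1 only Ccl3 did. With single libraries left out in turn, Ctss passed in 5 of 6 fits. It did not pass without CWHM-12 1, where its difference was 2.63 (adjusted p 0.856 with edgeR). Egr1 passed in 3 of 6 (not without CWHM-12 1, DMSO 1 or DMSO 2), and Serpina3f in 1 of 6, the fit without DMSO 1, with differences from -2.25 to -1.78 over the 6 fits.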

How the data were processed

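Per the labels' protocols, each library was built on BD Rhapsody with a whole transcriptome kit from about the same number of viable cells. The deposited files hold whole-number UMI counts per gene and barcode, with 10000 barcodes per library, and the submitters' processing notes name build GRCm39. For aligner, gene annotation and barcode choice, the sources used here give nothing. Libraries held 28220477 to 48100436 UMIs. Genes are named by symbol as in the files, and no coordinates were used. UMI counts were summed over the members of each library and tested with edgeR 4.0.16 in R 4.3.3 (quasi-likelihood, TMM, its filter on low counts, a batch term, Benjamini-Hochberg at 0.05). An SE is the log2 fold change divided by the root of its F statistic. Shares were compared with two-sided exact permutation tests over 20 assignments. Class by treatment was fitted against T cell barcodes with library, class and class by batch as terms. Doublets were scored with Scrublet in scanpy 1.11.5 and kept. Fits were tested on simulated counts, where class by treatment recovered 63% of 4-fold and 7% of 2-fold changes. Those counts had no batch effect and, within a class, the same dispersion for every gene.

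The members and all 27 gene lists were chosen with earlier results of these data known. The text names up to 8 called genes each way with at least 20 CPM, and, as fewer than 5 passed, the 12 of smallest p. It also names 20 genes for the cells, by the smallest log2 ratio of CPM plus 1 over other kept barcodes in any library among genes with at least 50 CPM, and up to 12 per side, by the smallest log2 ratio of CPM plus 20. Listed genes may be named too, and some genes that these rules allow are not reported here. Alternatives were DESeq2 1.42.0 and its size factors, limma 3.58.1 (voom), no filter, no batch term, a replicate block, other cell filters, thinning, equal numbers of members, doublets or members with genes of other cells left out, and each library left out. Leaving out members loaded with macrophage genes (20 or more UMIs) or cell cycle genes (10 or more UMIs) was chosen after seeing the data. Members of the NK-side alone could not be fitted, since 1 library had at least 20 of them.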

Additional observations from a re-analysis of the deposited data

Results flagged for a closer look

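The response to CWHM-12 differed between NK cells and ILC1 and T cells for 3 genes by the class by treatment test of edgeR, all of them described above. The log2 difference of response was 2.64 for Ctss, whose UMIs in members lay to 46.2% in a single barcode rich in macrophage RNA. It was -1.98 for Serpina3f, seen in 32 ILC1-side members and 1 NK-side member. It was -2.69 for Egr1, whose sign in members changed between the batches. None of the 3 passed in members alone, where Egr1 was too low to be tested, and none passed with only the macrophage-loaded barcodes left out. With the dividing barcodes left out as well, Serpina3f and Egr1 passed again and Ctss did not.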

How the results depend on the processing

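The count of 0 called genes in NK cells and ILC1 held under every alternative run except 2. Without the filter on low counts, 16 of 13020 genes passed, among them C1qa, Cd74, H2-Aa, Lpl, Mki67 and Top2a, and without DMSO 2, 4 genes passed (Cd74, H2-Aa, H2-Ab1 and H2-Eb1). Leaving out single libraries thus gave 0 to 4 genes, and 0 in each case once the macrophage-loaded members were also left out. Genes whose response differed from T cells numbered 3, against 5 without the filter, 6 when DESeq2's size factors replaced TMM, 7 without dividing members, 0 without macrophage-loaded members, 2 without both kinds of member and 1 to 8 when single libraries were left out. The cause of these shifts was not tested, apart from the barcodes left out. The difference for Egr1 ranged from -3.98 to 0.70 over single libraries left out, and was above 0 only without CWHM-12 1. The share among lymphocytes reversed to -1.43 points with the stricter cell filter, and ranged from -0.0604 to 2.34 points when single libraries were left out. The ILC1-side share ranged from -13.6 to 0.751 points and the share of kept barcodes from -0.561 to -0.212 points. Of 471 fold changes of single genes in members under alternatives, 468 kept direction and call. These were genes named above that had not passed, so a kept call means that they still did not pass. Of 459 list medians under alternatives, 68 moved, most often those of chemokine and egress receptors (11) and of the TGF-β pathway (7). Ctss passed without the filter (1.99) and turned to -1.31 without DMSO 3 and the macrophage-loaded members, and Irf8 turned to -0.012 with equal numbers of members. No pairing by replicate number was seen, as same-numbered libraries had correlations of -0.0034, -0.0097 and -0.0385 of their deviations. Differently numbered libraries had correlations from -0.0251 to 0.0334. With every correlation this small, the check could not exclude a pairing. With the replicate block in place of the batch term, 0 genes were called in members and 4 in class by treatment. Depth limits all values, since 1 UMI is worth 23.6 CPM in CWHM-12 3 and 4.16 CPM in DMSO 1.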
